A study of Mus musculus with 11 samples.

Results

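The replication-dependent histone genes of mouse embryonic stem cells (ESCs) were followed through 11 RNA-seq libraries. Members were taken by symbol, as every gene named Hist followed by a cluster digit, which gave 68 of the 23284 genes in each table: 6 genes of H1, 18 of H2A, 19 of H2B, 12 of H3 and 13 of H4. All ESCs were cultured on gelatin with serum and leukemia inhibitory factor. Poly(A)-selected RNA was sequenced from wild-type (WT) cells in 3 libraries. Ribodepleted total RNA was sequenced from WT cells and from cells lacking Tet1, Tet2 and Tet3 (TKO), each untreated (0 h) or after 4 h in 10 μg/ml α-amanitin, with 2 libraries in each of the 4 groups. The study describes the amanitin experiments as biological replicates, but neither it nor the labels say how the cultures of a group were separated or how many TKO clones were used, so p-values measure the spread between these libraries.

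Replication-dependent histone genes supply the core histones H2A, H2B, H3 and H4 and the linker histone H1 that package newly copied DNA, and their mRNAs accumulate in S phase. They are the known exception among mRNAs in that they normally end in a conserved stem-loop, bound by the stem-loop binding protein SLBP, rather than in a poly(A) tail. Cleavage after the stem-loop requires the U7 small nuclear ribonucleoprotein, and transcription from the histone loci depends on the coactivator NPAT. Replacement variants such as H3f3a and H2afz are made outside S phase too and carry ordinary poly(A) tails. α-Amanitin blocks RNA polymerase II, and the amanitin libraries were made to ask whether mRNA stability differs between WT and TKO cells.

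The stem-loop was the sequence feature that the members shared beyond their symbols. It was searched on the sense strand of the mouse genome (NCBIM37, the build called mm9) in the 200 bases after each stop codon annotated in GENCODE vM1, as GGNNNTTNNNANNNCC with all 6 stem pairs complementary. A match was present in 63 of 66 members with a coding sequence and in 14 of 22104 other protein-coding genes (0.063%), among them the variant H2afx. The loop letters were loosened after the members without a match had been inspected, and the stricter form with 1 more T, GGNNNTTTNNANNNCC, matched 61 members and 5 other genes. The 16-base match lay 21 to 58 bases after the stop codon, with a median of 30 bases. The sequences below are the stem-loops of the most abundant members of each type and of members that stood out in the comparisons. Capitals mark the 16-base stem-loop.
Hist1h1a (chr13:23856261-23856276, plus strand): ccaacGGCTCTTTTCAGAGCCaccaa
Hist1h2ak (chr13:21845251-21845266, minus strand): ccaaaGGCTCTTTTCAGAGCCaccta
Hist2h2ac (chr3:96024341-96024356, minus strand): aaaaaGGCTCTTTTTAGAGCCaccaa
Hist1h2bb (chr13:23839072-23839087, plus strand): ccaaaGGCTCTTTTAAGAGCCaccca
Hist1h2bp (chr13:21879792-21879807, plus strand): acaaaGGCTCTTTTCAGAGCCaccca
Hist1h3e (chr13:23653772-23653787, minus strand): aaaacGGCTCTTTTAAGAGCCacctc
Hist2h3c1 (chr3:96051250-96051265, plus strand): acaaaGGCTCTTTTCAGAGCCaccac
Hist1h4d (chr13:23673819-23673834, plus strand): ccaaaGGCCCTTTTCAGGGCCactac
Hist1h4a (chr13:23852669-23852684, minus strand): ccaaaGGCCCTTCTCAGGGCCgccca
Hist1h4i (chr13:22132835-22132850, minus strand): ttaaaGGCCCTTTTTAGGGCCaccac
Hist2h2bb (chr3:96074094-96074109, plus strand): caaaaGGCTCTTTTCAGAGCCacttt

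The 63 matches used 8 distinct 16-base sequences. The form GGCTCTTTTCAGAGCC was the match in 39 members, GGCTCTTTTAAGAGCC in 9, and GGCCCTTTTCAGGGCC in 8. Of the members with a coding sequence, 3 had no match: Hist1h2an carried GGCTCTTTTCAGAGCT, which forms 5 of the 6 pairs, Hist2h2bb held its match inside the annotated gene but not after the annotated stop, as its gene model is spliced, and Hist2h2be held none. Hist2h3c2 and Hist3h2bb-ps are annotated as pseudogenes with no coding sequence and were not searched after a stop codon. Of the 68 members, 54 lie in the Hist1 cluster on chromosome 13, 10 in Hist2 on chromosome 3, 3 in Hist3 on chromosome 11, and Hist4h4 lies on chromosome 6.

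Sequence is shared widely within the family. Windows of 100 bases were taken from the shortest annotated transcript of each gene, which can be shorter than the model counted for TPM. At least 1 window was identical in another member for 58 of 68 genes, and every window was shared for 6. The 5 members listed at 0 in all 11 libraries (Hist1h2ao, Hist1h2ap, Hist1h2bq, Hist1h2br and Hist2h2aa2) shared 85.1% to 100% of their windows. How reads that fit several copies were assigned is not given in the sources used here, so a zero there is no evidence that the copy is silent, and levels of single copies are uncertain. Among the 61 members tested below, the median log2 change after amanitin in WT cells was -0.31 in the 23 members with at most 20% of windows shared and -0.29 in the 17 with more than 50% shared.

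Depth, read back from the steps in the deposited values, was 72653679 to 82144939 assigned reads in the poly(A) libraries and 25511975 to 29786093 in the ribodepleted ones. Levels are in TPM, reads per transcript length rescaled to a fixed total. Tet1 stood at 124 to 143 scaled TPM in the WT 0 h libraries and at 30.0 to 30.2 in TKO 0 h, and Tet2 at 48.1 to 55.5 against 7.17 to 7.73. Tet3 stood at 1.42 to 1.49 in WT and 1.39 to 1.51 in TKO, so it did not separate the genotypes. Where the deleted parts of these genes lie was not used here. All 6 ESC markers were above 0 and summed to 1491 to 2891 TPM in every library, against 2.81 to 13.0 TPM for 6 fibroblast markers (1 at 0 in WT 0 h) and 2.08 to 7.77 TPM for 6 primitive endoderm markers. From WT 0 h to TKO 0 h the ESC sum went from 2203 to 2241 TPM down to 1538 to 1551 TPM, the fibroblast sum from 7.17 to 7.52 TPM up to 11.6 to 11.8 TPM, and the endoderm sum from 4.61 to 4.77 TPM down to 2.80 to 3.22 TPM, and their part in the histone differences was not tested.

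Histone mRNA held a far larger share of TPM in the ribodepleted libraries than in the poly(A) libraries. Members held 5.16% and 5.35% of all TPM in the 2 WT 0 h libraries, 3.69% and 3.91% in WT 4 h, 4.46% and 4.54% in TKO 0 h, and 4.10% and 3.74% in TKO 4 h. In the poly(A) libraries they held 0.0149% to 0.0161%. TPM gives short genes more weight than reads do. Of assigned reads, members held 1.33% and 1.44% in WT 0 h and 0.0054% to 0.0056% in the poly(A) libraries. The summed level was 52521 ± 1341 TPM (SD, n = 2) in WT 0 h and 156 ± 6.10 TPM (SD, n = 3) in the poly(A) libraries, a 337-fold difference between group means.

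H4 was the most abundant type in ribodepleted RNA per transcript length. In WT 0 h cells the H4 genes, whose protein forms the tetramer with H3 at the centre of the nucleosome, summed to 20738 ± 33.8 TPM (SD, n = 2), followed by H2B at 13716 ± 201, H3 at 7608 ± 558, H1 at 6132 ± 71.7 and H2A at 4327 ± 477. Every neighbouring pair in this order kept its order in both WT 0 h libraries. H2A and H3 were the types whose 2 WT 0 h libraries differed most, at 3990 and 4664 TPM for H2A and at 7214 and 8003 TPM for H3. As shares of the histone total, H4 ran from 39.2% to 40.7% and H1 from 10.6% to 11.7% over the 4 ribodepleted groups, so the balance of types moved by little.

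A few genes carried each type. Hist1h4d, a Hist1 copy of H4, gave 25.6% of the H4 sum over the ribodepleted libraries and was the most abundant member of all, at 5236 and 5312 TPM in WT 0 h. Hist2h2bb, an H2B gene of the Hist2 cluster, gave 28.8% of its type at 4137.2 and 4137.3 TPM, and the linker gene Hist1h1a gave 45.0% of H1 at 2632 and 2678 TPM. Hist1h3e gave 25.4% of H3 and Hist1h2ak gave 27.6% of H2A. The next members by level were Hist1h4f and Hist1h4a for H4, Hist1h2bb and Hist1h2bm for H2B, Hist1h3c and Hist1h3b for H3, Hist1h1b and Hist1h1c for H1, and Hist2h2ac and Hist1h2ab for H2A. These levels depend on model length: 12 members have models longer than 1000 bases, such as Hist1h1d at 2977 bases, whose 47025 reads in the 2 WT 0 h libraries nearly equalled the 46791 of the 312-base Hist1h4d although its mean TPM was 555 against 5274.

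**Figure D1:**
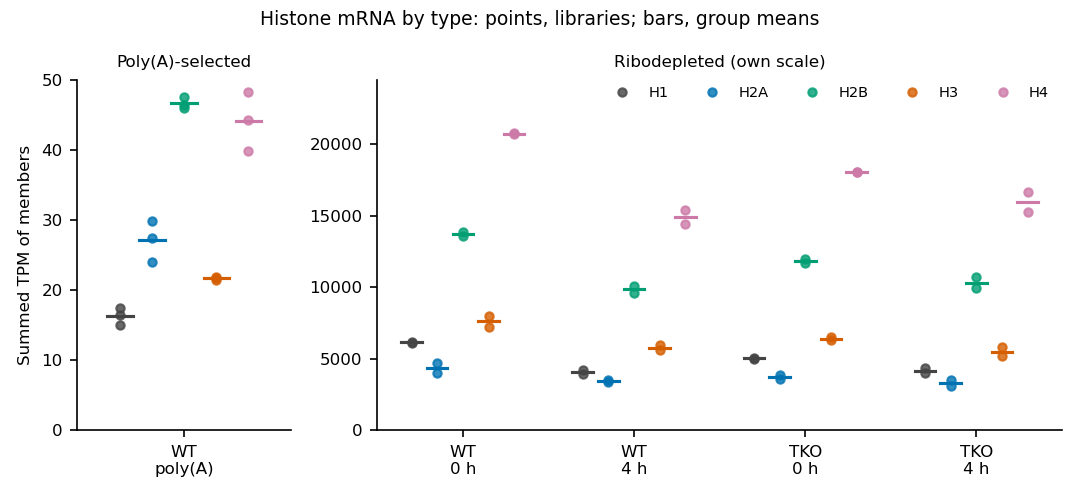
Summed TPM of the histone members by type in each library, with the poly(A) libraries on an axis of their own; points are libraries and bars are group means. H4 leads in all 4 ribodepleted groups (20738 TPM in WT 0 h), whereas no type exceeds 50 TPM in the poly(A) libraries.

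The comparison of poly(A) with ribodepleted WT RNA shows how far each member is seen among tailed RNA. These libraries differ in RNA selection. Any difference in sequencing run or library preparation, which the labels do not give, would go with the selection and cannot be told apart from it. In a limma fit on log2(scaled TPM + 1), 60 of 61 tested members were called lower in poly(A) RNA (Benjamini-Hochberg adjusted p below 0.05 and a change over 1.5-fold), where 16.4% of 12481 genes were called lower and 18.7% higher. At adjusted p alone 61 members were lower (40.8% of all genes) and 0 higher (40.1%), and every poly(A) library was below every ribodepleted one for all 61 (43.9% of all genes). Of the replacement variants, 9 of 11 were higher in poly(A) RNA and 1 lower at adjusted p below 0.05. Their median log2 difference was 0.54, against -7.91 for the members. H2afx, the variant with a stem-loop match, gave 495, 493 and 487 TPM in the poly(A) libraries, between its 409 and 520 TPM in WT 0 h. The 60 members with more than 3 reads in the poly(A) libraries had a median ratio of 439.5 between ribodepleted and poly(A) TPM. The ratio exceeded 100 for 45 members and 1000 for 18, and fell below 50 for 11. Of all 68 members, 61 had a mean above 1 TPM in ribodepleted WT 0 h RNA and 36 in poly(A) RNA.

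On the log2(scaled TPM + 1) scale the widest gaps belonged to 4 core histone genes and the linker gene Hist1h1b. By the plain ratio of mean TPM, Hist1h4c came first at 3930-fold and Hist2h2ac, an H2A gene with 7 poly(A) reads in all, second at 3736-fold. Hist2h2bb gave 1.07, 1.79 and 1.77 TPM in the poly(A) libraries against 4137.2 and 4137.3 in ribodepleted RNA, a log2 difference of -10.77 (SE 0.12, limma adjusted p = 3.5e-11). Hist1h4d gave 2.40, 3.18 and 2.48 TPM against 5236 and 5312, and Hist1h4c gave 0.710, 0.265 and 0.387 TPM against 1766 and 1803. Hist1h4f and Hist1h1b followed, with log2 differences of -10.18 and -10.02. No poly(A) library came near any ribodepleted library for these genes. Hist1h2ba, the testis H2B, had no read in any poly(A) library, and with a floor of 3 reads over the group it was at least 340-fold lower there than in ribodepleted RNA (21.6 and 25.2 TPM).

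At the other end, Hist2h2be was nearly as high in poly(A) as in ribodepleted RNA. It gave 1.78, 1.74 and 1.96 TPM in poly(A) libraries and 2.21 and 2.33 TPM in ribodepleted ones, a log2 difference of -0.28 (SE 0.08, adjusted p = 0.011) that did not reach 1.5-fold. No stem-loop was found in its gene model. Nor did Hist2h2bb, with the widest gap, hold one after its annotated stop, although it held one inside its gene. Hist2h3c1, an H3 gene, gave 1.91, 2.16 and 2.65 TPM against 4.58 and 3.38, a log2 difference of -0.69 (SE 0.12, adjusted p = 0.00079), and was not called when WT 0 h replicate 1 was left out (-0.55). Its stem-loop is the common form printed above, and its annotated gene runs 1166 bases past it. All windows of its shortest transcript, of 546 bases, are shared with Hist2h3b and Hist2h3c2. The model counted for TPM has 1825 bases, and its remainder was not compared. Hist2h3c2 gave 0.407, 0.081 and 0.474 TPM against 5.47 and 5.63.

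Hist1h1t, the testis linker histone, and Hist3h2ba completed the 5 smallest differences on the log2(scaled TPM + 1) scale, at -3.29 and -4.20. For low genes the added 1 TPM shrinks the difference, and by plain ratio Hist1h1t was 62.5-fold lower in poly(A) RNA, more than Hist3h2ba at 19.9-fold or Hist2h3c2 at 17.3-fold. Hist3h2ba still gave 4.96, 5.90 and 6.32 TPM in poly(A) RNA against 114.5 and 113.7 TPM. The poly(A) signal of the family was concentrated: Hist1h2bc, Hist1h4i, Hist1h1c, Hist1h4k and Hist1h3g held 42.4% of it but only 8.48% of the ribodepleted WT 0 h signal. Hist1h2bc, an H2B gene, led with 24.6, 22.5 and 23.6 TPM against 517 and 532 TPM, and Hist1h4i followed with 15.9, 15.5 and 14.3 TPM against 521 and 518 TPM. Both genes hold a stem-loop after the stop codon, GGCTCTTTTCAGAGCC in Hist1h2bc and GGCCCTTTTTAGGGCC in Hist1h4i, the first of them the form that Hist1h1a also carries. The annotated gene runs 7826 bases past the stem-loop in Hist1h2bc and 150 in Hist1h4i, against 7 in Hist1h1a. It also runs 3050 bases past it in Hist1h1d, which was 1668-fold lower in poly(A) RNA. The part of these longer models in the poly(A) signal was not tested. Hist1h2bc shares 41.9% of its windows with other H2B genes.

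**Figure D2:**
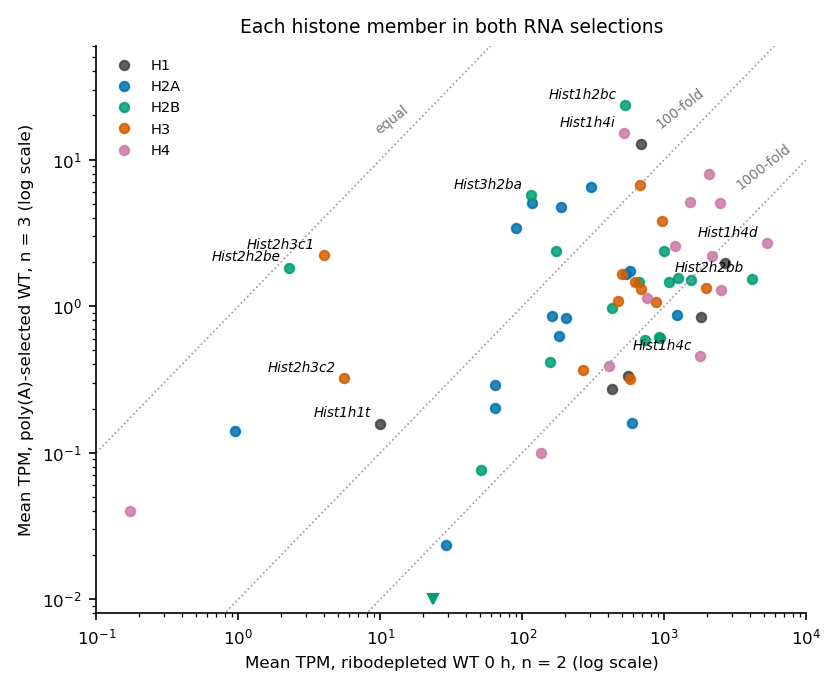
Mean TPM of each member above 0 in poly(A)-selected WT libraries (n = 3) against ribodepleted WT 0 h libraries (n = 2), both on log scales, coloured by type; dotted lines mark equal levels and 100-fold and 1000-fold gaps, and the triangle is a member with no poly(A) read. Hist2h2be and Hist2h3c1 lie near equality, and 18 members lie beyond 1000-fold.

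Amanitin in WT cells was followed by lower histone mRNA of every type. For tests between ribodepleted libraries, TPM was divided by size factors so that the typical gene stayed level. A fall common to all mRNA is therefore not seen, and each change is relative to that gene. Summed deposited TPM went from 51572 and 53469 in the 2 WT 0 h libraries to 36904 and 39116 in the 2 WT 4 h libraries, a ratio of 0.724 that becomes 0.808 after scaling. In bulk RNA, fewer cells in S phase and less histone mRNA per cell cannot be told apart.

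Across the 61 tested members the median log2 change was -0.27, and it was 0.03 over all 12467 tested genes. The log2 change was below 0 for 60 of 61 members, and for 45.9% of all tested genes. At adjusted p below 0.05 (limma), 42 members were lower and 0 higher, where 15.8% of all genes were lower and 21.9% higher. With the added limit of 1.5-fold, 3 members were called lower (2.01% of all genes) and 0 higher (0.0882%). The shift was therefore broad and mostly smaller than 1.5-fold. Every WT 4 h library was below every WT 0 h library for 53 members, which was so for 32.5% of all genes. Each WT 4 h library alone gave a median near this one, at -0.28 and -0.26 against the WT 0 h mean, but it was -0.22 against WT 0 h replicate 1 alone and -0.36 against WT 0 h replicate 2 alone. The count at adjusted p alone was less stable, at 8 without WT 4 h replicate 1 and 26 without WT 0 h replicate 2, fits in which 2.2% and 9.66% of all genes were lower.

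By type, the linker histones H1 had the largest median change. H1 genes had a median of -0.44, with 5 of 6 lower at adjusted p below 0.05, and H4 genes had a median of -0.33 with 12 of 12 lower. H2B followed at -0.29 with 13 of 17 lower, H3 at -0.24 with 8 of 12 lower, and H2A at -0.15 with 4 of 14 lower. The differences between types were not tested, and the spread of the 2 WT 0 h libraries was widest for H2A and H3. Summed deposited TPM fell to 0.661 of the 0 h mean for H1, 0.719 for H4, 0.718 for H2B, 0.757 for H3 and 0.797 for H2A. Among the abundant members, Hist1h1b went from 1739 and 1816 scaled TPM to 1231 and 1244 (log2 change -0.52, SE 0.06, adjusted p = 0.0024). Hist1h4d went from 5077 and 5356 to 4138 and 4184 scaled TPM (-0.33, SE 0.08, adjusted p = 0.013). Hist1h2ak, the leading H2A gene, stood at 1108 and 1336 and then at 1089 and 1108.4 scaled TPM, a change of -0.15 that did not pass (adjusted p = 0.21).

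The 3 called members were Hist1h1d and the neighbouring copies Hist2h3c1 and Hist2h3c2. Hist1h1d, a linker histone, fell from 531 and 568 scaled TPM to 355 and 369.6 (-0.60, SE 0.05, adjusted p = 0.0012), and was no longer past 1.5-fold without WT 0 h replicate 2 or WT 4 h replicate 1. Hist2h3c2 fell from 5.30 and 5.68 to 2.13 and 2.05 scaled TPM (-1.07, SE 0.09, adjusted p = 0.0012), and Hist2h3c1 from 4.44 and 3.40 to 1.81 and 1.47 (-0.89, SE 0.13, adjusted p = 0.0055). These H3 copies were the largest changes on the log scale but rested on 28 to 117 reads a library. All windows of their shortest transcripts are shared.

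In TKO cells the same treatment was followed by smaller differences that mostly did not pass. Summed deposited TPM was 44649 and 45417 in the 2 TKO 0 h libraries and 41013 and 37402 in the 2 TKO 4 h libraries, a ratio of 0.871, or 0.931 after scaling. The median log2 change of the 61 members was -0.10 (0.01 over all genes), and 51 members were below 0, against 46.4% of all genes. Every TKO 4 h library was below every TKO 0 h library for 41 members (26.0% of all genes). No member was called, where 0.16% of all genes were called lower and 0.0% higher. At adjusted p alone Hist1h1d passed, with 425 scaled TPM in both TKO 0 h libraries and 339 and 328 in TKO 4 h (-0.35, SE 0.05, adjusted p = 0.049), where 0.265% of all genes were lower. The unadjusted p was under 0.05 for 18 of 61 members, where it was for 24.9% of all genes, and voom on the recovered reads put 7 members and 4.0% of all genes lower at adjusted p below 0.05. Without TKO 4 h replicate 1, 8 members were lower at adjusted p alone and 9.85% of all genes were, so this library set much of the count.

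Whether the genotypes differed in their amanitin change was tested as an interaction. The interaction term was above 0, meaning a smaller fall or a rise in TKO, for 59 of 61 members, with a median of 0.20 (-0.02 over all genes). It was below 0 for 54.4% of all genes. Members share libraries and much of their sequence, so 59 is not a count of independent observations. No member passed at adjusted p below 0.05, the smallest adjusted p being 0.61, and 0.0% of all genes did in either direction. The unadjusted p was under 0.05 for 31 members, where it was for 7.52% of all genes, and voom on the recovered reads also gave 0. By type the medians were 0.27 for H1, 0.24 for H4, 0.21 for H2B, 0.12 for H3 and 0.11 for H2A. A difference between genotypes in the response of any single histone gene was thus not shown with 2 libraries a group.

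**Figure D3:**
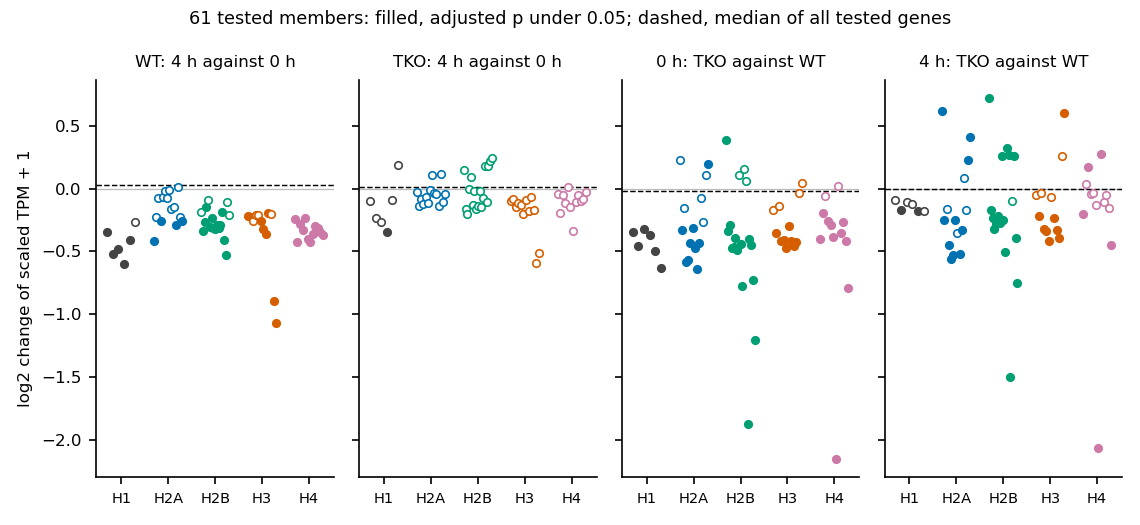
Log2 change of scaled TPM + 1 for each of the 61 tested members by histone type in the 4 comparisons of ribodepleted libraries; filled points have adjusted p below 0.05 and the dashed line is the median of all tested genes. In WT cells 60 of 61 members lie below 0 after amanitin, and at 0 h 52 of 61 lie below 0 in TKO against WT.

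Untreated TKO cells held less histone mRNA than untreated WT cells. Summed TPM was 44649 and 45417 in TKO 0 h against 51572 and 53469 in WT 0 h, a ratio of 0.857 (0.802 after scaling). The median log2 difference of the 61 members was -0.38, against -0.02 over all genes, and 52 members were below 0, as were 52.4% of all genes. Every TKO 0 h library was below every WT 0 h library for 48 members (42.6% of all genes). At adjusted p below 0.05, 45 members were lower and 2 higher, where 28.2% of all genes were lower and 27.8% higher. The split was 43 and 7 in deposited TPM, where 2197 of 12467 genes were lower and 4151 higher. With quantile normalisation it was 40 and 6, where 3627 genes were lower and 3366 higher. Past 1.5-fold as well, 8 members were called lower (5.43% of all genes) and 0 higher (10.5%). The median of the members was -0.30 against WT 0 h replicate 1 alone and -0.42 against replicate 2 alone. All types took part: 6 of 6 H1 genes, 10 of 12 H4, 13 of 17 H2B, 8 of 12 H3 and 8 of 14 H2A were lower at adjusted p alone, with medians between -0.32 and -0.44.

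Within this broad shift, Hist1h4i and Hist1h2bp stood far from the rest. Hist1h4i, an H4 gene, gave 505 and 522 scaled TPM in WT 0 h and 116 and 113 in TKO 0 h, a 4.48-fold difference (log2 -2.15, SE 0.06, adjusted p = 6.9e-08). Hist1h2bp, an H2B gene, gave 173 and 171 in WT 0 h and 46.6 and 45.8 in TKO 0 h, a 3.72-fold difference (-1.87, SE 0.06, adjusted p = 1.7e-07). The groups were widely separated for both genes, with 875 to 4016 and 391 to 1479 reads behind each of these values. Hist3h2bb-ps, the annotated H2B pseudogene, gave 50.4 and 50.1 against 23.5 and 19.2 scaled TPM (-1.21, SE 0.09, adjusted p = 9.2e-06).

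The other called members differed by less than 2-fold. Hist4h4, the only gene of its cluster, gave 129 and 139 against 79.0 and 75.0 scaled TPM (-0.79, SE 0.06). Hist1h2bl gave 866 and 949 against 534 and 525 (-0.78, SE 0.06). Hist3h2ba, Hist1h2ai and Hist1h1t were called as well, at -0.73, -0.64 and -0.63. Hist1h1t, at 8.59 and 10.9 against 5.50 and 6.34 scaled TPM, was not past 1.5-fold in deposited TPM (-0.55), without TKO 0 h replicate 1 (-0.55) or without WT 0 h replicate 2 (-0.48, adjusted p = 0.060). Higher at adjusted p alone were Hist1h2ba (0.39) and Hist3h2a (0.19). Of the abundant members, Hist1h2bm and Hist2h2ac were the exceptions to the direction on scaled values, at 0.16 and 0.11, and neither passed there. In deposited TPM Hist1h2bm gave 1496 and 1485 in TKO 0 h against 1219 and 1278 in WT 0 h. In that scaling 4 of 17 H2B genes were higher at adjusted p below 0.05, where 4151 of 12467 genes were.

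Neighbours of the most reduced genes differed by less. Hist1h2an lies 242 bases from Hist1h2bp on the other strand and differed by -0.07 (adjusted p = 0.46). Hist1h2ag, 1126 bases from Hist1h4i, differed by -0.31 (adjusted p = 0.0043), and Hist1h2bj, 1861 bases away, by 0.11 (adjusted p = 0.097). Farther off, Hist1h3i and Hist1h1b, 4063 and 6835 bases from Hist1h2bp, differed by -0.45 and -0.46. Hist1h2bk and Hist1h2ah, 4516 and 5172 bases from Hist1h4i, differed by -0.44 and -0.47. In the Hist3 cluster, Hist3h2bb-ps and Hist3h2a lie 172 bases apart on opposite strands and went opposite ways, at -1.21 and 0.19 (adjusted p = 9.2e-06 and 0.0053). Hist1h2bl and Hist1h2ai, 268 bases apart, were both called lower. Hist1h2bp shares 51.1% of its 100-base windows with other H2B genes, and Hist1h4i shares 21.7% with other H4 genes.

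After 4 h of amanitin the median difference between genotypes was smaller than at 0 h, and its direction over the family depended on scaling. The change of this difference from 0 h to 4 h is the interaction above, which passed for no member. The WT amanitin change, the 0 h difference and the interaction all use the same WT 0 h libraries and are not independent. Summed TPM was 41013 and 37402 in TKO against 36904 and 39116 in WT, a ratio of 1.03 as deposited and 0.924 after scaling, so no direction is given for the sum. The median log2 difference of the members was -0.17 after scaling (-0.01 over all genes), -0.01 in deposited TPM (0.14 over all genes) and -0.0009 with quantile normalisation (-0.02 over all genes). At adjusted p below 0.05, 30 members were lower and 11 higher, where 30.3% of all genes were lower and 29.1% higher. In deposited TPM the split was 14 and 14, where 2072 of 12467 genes were lower and 5017 higher. With quantile normalisation it was 11 and 13, where 3644 genes were lower and 3337 higher. Past 1.5-fold, 3 members were called lower (5.82% of all genes) and 3 higher (11%). Every TKO 4 h library was below every WT 4 h library for 43 members (39.9% of all genes).

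The 3 members called lower at 4 h were also called lower at 0 h. Hist1h4i gave 380.5 and 386 scaled TPM in WT and 95.6 and 86.0 in TKO (-2.07, SE 0.06, adjusted p = 8.1e-08), Hist1h2bp 145 and 156 against 55.7 and 49.8 (-1.50, SE 0.06), and Hist3h2bb-ps 41.9 and 44.5 against 24.3 and 26.2 (-0.75, SE 0.09). The 3 members called higher were Hist1h2ba, Hist1h2aa and Hist2h3c2. Hist1h2ba and Hist1h2aa, the testis forms of H2B and H2A, lie 305 bases apart on opposite strands. Hist1h2ba gave 20.7 and 19.7 in WT against 38.7 and 29.7 in TKO (0.72, SE 0.12, adjusted p = 0.0011), and Hist1h2aa 23.1 and 19.4 against 30.3 and 35.9 (0.62, SE 0.10, adjusted p = 0.00093). At 0 h the same pair gave 20.9 and 25.5 against 29.0 and 32.1 scaled TPM, and 27.5 and 29.7 against 31.8 and 35.5 scaled TPM, differences of 0.39 (adjusted p = 0.026) and 0.22 (adjusted p = 0.094). Leaving out TKO 4 h replicate 1 took Hist1h2ba below 1.5-fold (0.54), and leaving out WT 4 h replicate 2 (0.49) or TKO 4 h replicate 2 (0.50) did so for Hist1h2aa. Hist2h3c2 gave 2.13 and 2.05 in WT against 3.53 and 3.85 in TKO (0.60, SE 0.09, adjusted p = 0.00041) from 28 to 52 reads a library, and was below 1.5-fold with quantile normalisation (0.42), and without WT 4 h replicate 2 (0.58) or TKO 4 h replicate 2 (0.55).

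**Figure D4:**
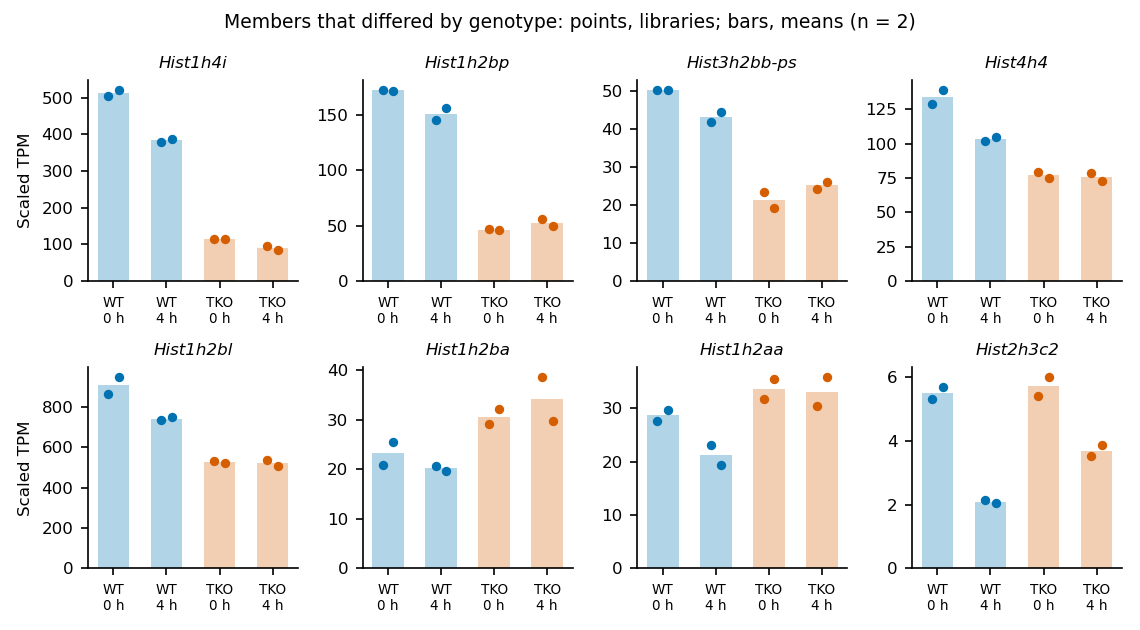
Scaled TPM of 8 members in the ribodepleted libraries; points are libraries and bars are group means from 0 (n = 2). Hist1h4i stands at 505 and 522 in WT 0 h and at 116 and 113 in TKO 0 h, every TKO library of Hist1h2ba and Hist1h2aa is above the WT libraries of its time, and Hist2h3c2 is lowest in WT 4 h.

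Genes that work with the histones were compared as lists written with earlier results of these data known. After amanitin in WT cells all 11 replacement variants were above 0 on the scaled values, with a median of 0.25, and 7 were higher at adjusted p below 0.05 with 0 lower. None passed 1.5-fold, and in deposited TPM 7 of 11 were above 0 with a median of 0.10 and 1 higher. Replication and S phase genes had a median of 0.17 with 15 of 24 higher and 4 lower, and in deposited TPM a median of 0.01 with 1 higher and 4 lower. The median of the replication-dependent members was below that of each list under each scaling, at -0.42 in deposited TPM (-0.11 over all genes) and -0.43 with quantile normalisation (0.04 over all genes). The 12 chaperones had 5 higher and 2 lower, and the 18 genes of histone mRNA processing and turnover 5 higher and 3 lower, with medians of 0.07 and 0.02 that turned to -0.09 and -0.13 in deposited TPM. Beside these counts of the 4 lists on scaled values, 21.9% of all genes were higher and 15.8% lower. In deposited TPM 398 of 12467 genes were higher and 3143 lower. Slbp gave 160 and 164 scaled TPM in WT 0 h and 171.1 and 171 in WT 4 h, a change of 0.08 that did not pass (adjusted p = 0.16), while Npat went from a mean of 33.3 ± 1.26 to 25.1 ± 1.28 scaled TPM (SD, n = 2 each, log2 -0.39, SE 0.09, limma adjusted p = 0.014).

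In TKO cells after amanitin 0 genes of these lists passed at adjusted p below 0.05, with medians of 0.13 for replacement variants, 0.12 for replication and S phase, 0.01 for chaperones and 0.01 for processing and turnover, and the unadjusted p was under 0.05 for 6 of 11, 17 of 24, 5 of 12 and 5 of 18 of their genes, where it was for 24.9% of all genes. Between the genotypes at 0 h the list medians were below 0 on scaled values, though not for processing in deposited TPM, and nearer to 0 than the members' -0.38. Medians were -0.09 for processing and turnover (7 of 18 lower, 4 higher at adjusted p below 0.05), -0.18 for chaperones (7 of 12 lower, 2 higher), -0.16 for replication and S phase (12 of 24 lower, 1 higher) and -0.12 for replacement variants (5 of 11 lower, 2 higher). Over all genes 28.2% were lower and 27.8% higher. The list splits depended on scaling. The processing list had 3 lower and 5 higher both in deposited TPM (median 0.01) and with quantile normalisation (-0.03). The replication list had 8 lower and 5 higher in deposited TPM (-0.07) and 9 lower and 5 higher with quantile normalisation (-0.10). Of all 12467 genes, 2197 were lower and 4151 higher in deposited TPM, and 3627 and 3366 with quantile normalisation. Slbp, whose protein binds the stem-loop, gave 127 and 122 scaled TPM in TKO 0 h against 160 and 164 in WT 0 h (-0.38, SE 0.04, adjusted p = 9.8e-05). Zcchc11, a uridyltransferase that marks histone mRNA for decay, was higher at 26.1 and 25.4 against 15.2 and 13.1 (0.82, SE 0.10, adjusted p = 0.00013). Ccne1, the cyclin of S phase entry, was lower at 173 and 179.8 against 299.7 and 308.5 (-0.78, SE 0.06, adjusted p = 8.7e-06). Asf1a, an H3-H4 chaperone, was lower at 42.1 and 40.5 against 63.0 and 62.3 (-0.59, SE 0.05), as were the linker variants H1fx (-0.66) and H1f0 (-0.62). Asf1a, H1fx and H1f0 were not past 1.5-fold in deposited TPM (-0.50, -0.57 and -0.53).

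**Figure D5:**
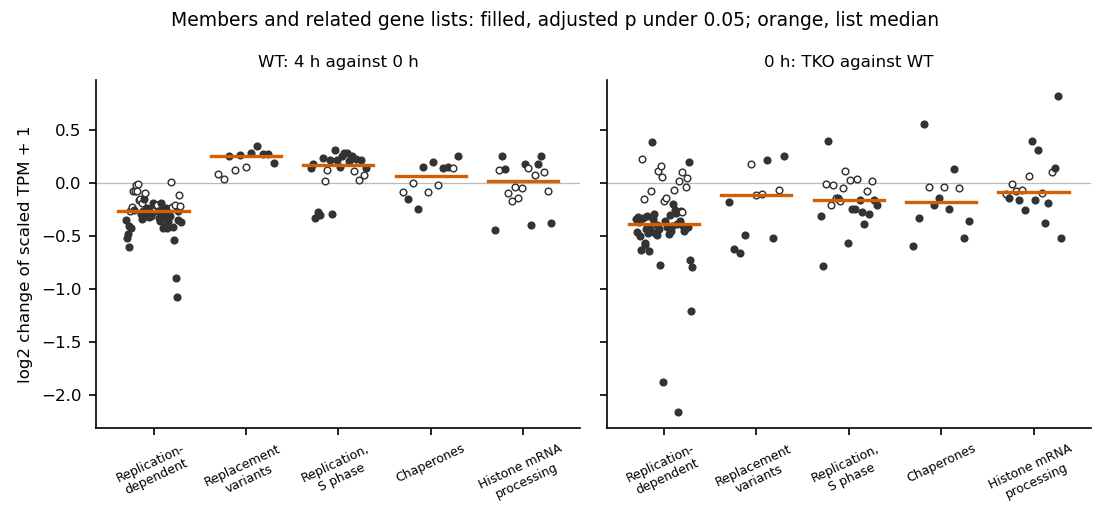
Log2 change of scaled TPM + 1 for the 61 tested members and for 4 related gene lists after amanitin in WT cells (left) and in TKO against WT at 0 h (right); filled points have adjusted p below 0.05 and orange bars are list medians. After amanitin the members have a median of -0.27 and the replacement variants one of 0.25.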

How the data were processed

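The deposited files give TPM per gene for 11 libraries, 1 file a library. Per the labels, reads were handled with FastQC, Trimmomatic, Bowtie2 and HTSeq, and per the study's methods the authors mapped them to mm9 with STAR and RefSeq transcripts. Tool versions, strand settings and the rule for reads that fit several places are not given in the sources used here. In every file TPM are whole multiples of 1 read per length, so reads were recovered for 100% of 19869 genes above 0 (within 0.01 read) and used for depth and 1 alternative only. Because the files hold TPM and not counts, no count test was the main test.

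TPM was divided by median-of-ratios size factors (0.891 to 1.09 in the ribodepleted libraries). Genes with mean scaled TPM above 1 were fitted as log2(scaled TPM + 1) with limma 3.58.1 (R 4.3.3, eBayes with trend), which understates changes of low genes. The 8 ribodepleted libraries shared 1 fit with a term per group, and poly(A) against WT 0 h had its own. Calls needed a Benjamini-Hochberg adjusted p below 0.05 over all tested genes and a change over 1.5-fold. Hist1h4m and Hist2h2aa1 fell under the filter between ribodepleted groups. On data simulated from these libraries, 200 of 200 well-counted genes changed 2-fold were called in each of 3 comparisons, with 5 (WT 4 h against 0 h), 12 (TKO against WT at 0 h) and 20 (poly(A)) unchanged genes called. The last number reached the limit first set for the simulation, and the limit was then restricted to genes with at least 50 reads, of which 0 were called. Calls on members with fewer reads are less secure. Changes smaller than 2-fold, amanitin in TKO cells and the interaction were not simulated, so recovery of changes as small as those of most members is not known. Replicates differed beyond counting noise in every group (chi-square over degrees of freedom of 1.53 to 10.6). Named members were the 3 most abundant of each type, the up to 5 largest called changes in each direction per comparison, and the 5 smallest and 5 largest poly(A) differences; from each related list up to 2 called genes were named in each direction, with Slbp and Npat. Members, lists and rules were chosen with earlier results of these data known. Genes described by position or poly(A) level beyond these were chosen after their values were seen. Stem-loops and gene positions came from NCBIM37 with GENCODE vM1, matched by symbol for 68 of 68 members. Alternatives were other scalings, pseudocounts, filters, a replicate block, voom and leaving out each library.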

Additional observations from a re-analysis of the deposited data

Results flagged for a closer look

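In 5 members every WT 4 h library was below every WT 0 h library while every TKO 4 h library was above every TKO 0 h library, a pattern shown by 144 of 12467 tested genes (1.16%). The difference of the 2 changes was 0.18 for Hist1h2bf, 0.37 for Hist1h2bp, 0.71 for Hist2h2be, 0.33 for Hist3h2ba and 0.45 for Hist3h2bb-ps on the log2 scale. All 5 are H2B genes. The interaction test passed for none of them, with adjusted p between 0.61 and 0.662 (limma). Hist2h2be went from 2.14 and 2.35 to 1.26 and 1.23 scaled TPM in WT cells and from 1.37 and 1.38 to 1.68 and 1.70 in TKO cells, on 43 to 88 reads a library.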

How the results depend on the processing

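Called members lower after amanitin in WT cells numbered 3 (2.01% of all genes), and 42 with no fold limit (15.8%). They numbered 6 in deposited TPM, 11 with quantile normalisation, 1 with a pseudocount of 5 TPM and 1 with mean scaled TPM above 5. Shares of all genes past 1.5-fold are not given for these settings. At adjusted p alone 25.2%, 11.3%, 15.8% and 20.7% of tested genes were lower in them. In TKO cells 0 (0.16% of all genes) became 1 in deposited TPM, 1 with voom and 1 with no fold limit. At adjusted p alone 0.802%, 4.0% and 0.265% of tested genes were lower there. Dropping the fold limit also gave 45 lower and 2 higher for TKO against WT at 0 h (28.2% and 27.8% of all genes). At 4 h it gave 30 lower and 11 higher (30.3% and 29.1%), and there a pseudocount of 5 TPM left 1 of the 3 higher calls. Leaving out 1 library gave 2 to 3 lower calls in WT amanitin, 0 to 1 in TKO amanitin, 6 to 13 lower in TKO at 0 h, 3 to 5 lower and 1 to 3 higher at 4 h, and 59 to 60 in poly(A) RNA. After scaling, the sum of all members had ratios of 0.808 (WT amanitin), 0.931 (TKO amanitin), 0.802 (TKO at 0 h) and 0.924 (TKO at 4 h). No called difference of a named gene changed direction under any alternative run. Slbp, whose change after amanitin in WT cells did not pass, was higher on scaled values but lower in deposited TPM. It gave 165 and 163 TPM in WT 0 h and 152 and 157 TPM in WT 4 h. Same-numbered libraries deviated together by -0.039 to 0.11 (correlation), so numbers were not taken as pairs. A replicate block gave 3, 0, 8 and 3 lower calls in these comparisons and 3 higher at 4 h, as without it, and 60 in poly(A) RNA.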
